A study of Mus musculus with 12 samples.

Results

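The proximal tubule transporter genes are a set of 40 genes chosen by name: solute carriers of the proximal tubule, the receptors with which this segment takes up filtered protein, and its water channel. The set was chosen with earlier results of these data known, so its counts are descriptions beside the shares of all genes. Each of the 40 was found as a single row of the count table, which has 54532 rows. All 40 passed the filter on low counts, and 39 of them were read at 57 to 98545 counts in each mouse. The remaining gene, *Slco1a1*, had at most 9 counts in any mouse and 0 in 4 of the 12 mice, so its own values are given as counts only. It stays in the counts and medians over all 40 members.

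The proximal tubule is the first stretch of the nephron after the glomerulus and recovers most of the filtered water, sodium, bicarbonate, glucose, amino acids and phosphate. Its apical brush border carries sodium-coupled transporters and the endocytic receptors megalin and cubilin, and its basolateral membrane passes solutes to the blood and takes up organic anions and cations for secretion. Loss of these carriers gives known disorders of reabsorption, such as renal glucosuria, aminoaciduria, cystinuria and phosphate wasting.

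Whole-kidney RNA was sequenced from 12 mice aged 18 days, labelled C57BL/6 and kept by the study on a C57BL/6 J background, 3 in each of 4 groups, and counted per gene. All mice carried the *Pkd1* RC allele, a missense allele that lowers functional polycystin-1. Noncystic mice were *Pkd1* RC/+, which the study derived as RC/F without Cre, with *Pkd2* wild type (mice 19, 20 and 21) or *Pkd2* Δ17/Δ17 (mice 22, 23 and 24), in which the miR-17 binding motif is deleted from the *Pkd2* 3′-UTR. Cystic mice were KspCre; *Pkd1* RC/F, called *Pkd1* RC/-, with *Pkd2* wild type (mice 25, 26 and 27) or *Pkd2* Δ17/Δ17 (mice 28, 29 and 30). In what follows, wild-type and Δ17 refer to the *Pkd2* genotype. Because only cystic mice carried Cre, an effect of Cre and an effect of *Pkd1* loss cannot be told apart. KspCre is driven by the *Cdh16* promoter, which is known to act mainly in the distal nephron and collecting duct. In whole-kidney RNA, fewer cells of a type and less RNA per cell cannot be told apart, and the segment in which a transcript was made was not measured.

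Reads assigned to named genes numbered 18796318 to 24447257 per mouse. The 10 most abundant genes held 8.79% to 9.67% of the reads in the noncystic and 4.56% to 5.85% in the cystic groups. *Pkd2* read 193.8 to 219 CPM in noncystic wild-type, 271 to 286 CPM in noncystic Δ17, 213 to 233 CPM in cystic wild-type and 307 to 337 CPM in cystic Δ17 mice, and *Pkd1* read 50.4 to 81.7 CPM over the 12 mice. CPM values are counts scaled by library total and TMM factor, and values per mouse are given in the order of the mouse numbers.

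The first comparison, of cystic with noncystic kidneys that had wild-type *Pkd2*, gave lower levels for nearly the whole set. Of the 40 members, 37 were lower in cystic kidneys, 0 were higher and 3 were not called, where a call means that the quasi-likelihood test of edgeR gave an adjusted p under 0.05 (Benjamini-Hochberg, over 24475 genes). Among all genes tested, 31.2% were called in either direction, and 14.3% were called lower. Among the 6895 better expressed genes (mean log2CPM 5 or more), 52.9% were called and 27.7% were called lower. The called members were 34.6% to 69.2% lower, and 30 of them at least 2-fold lower. The median log2 fold change over the 40 members was -1.20, against 0.02 over all genes. In 38 members all 3 cystic mice lay below all 3 noncystic mice, an arrangement that 19.8% of all genes showed. Every call held under each alternative setting and with any mouse left out.

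With the motif deleted from *Pkd2* the same comparison used different mice, 28 to 30 against 22 to 24. Here 34 members were lower in cystic kidneys, 0 were higher and 6 were not called, beside 23.2% of all genes called in either direction and 10.3% called lower. Among the better expressed genes 42.6% were called and 21.9% were called lower. The called members were 25.6% to 71.6% lower, 18 of them at least 2-fold lower. The median log2 fold change of the members was -0.99, against 0.00 over all genes. All 3 cystic mice lay below all 3 noncystic mice in 37 members, beside 17.8% of all genes.

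Between the 2 cystic groups, 8 members were higher in the cystic Δ17 mice, 0 were lower and 32 were not called. Of all genes, 2.24% were called in this comparison, and 1.19% were called higher. Among the better expressed genes 4.55% were called and 2.84% were called higher. The 8 were *Slc16a4*, *Slc5a8*, *Slc9a3*, *Aqp1*, *Slc7a13*, *Lrp2*, *Slco4c1* and *Cubn*, with rises of 1.39-fold to 1.87-fold. The median log2 fold change of all 40 was 0.32, against 0.00 over all genes. Without *Slco1a1* the medians of the 3 comparisons given so far were -1.21, -0.99 and 0.32. In 13 members all 3 cystic Δ17 mice lay above all 3 cystic wild-type mice, beside 8.81% of all genes, and 23 members had an unadjusted p under 0.05, beside 14.4% of all genes. The count of 8 calls depended on single mice, being 16 without mouse 25, 3 without mouse 27, 3 without mouse 28 and 4 without mouse 29, and it was 11 with DESeq2 and 3 when only the compared groups were fitted. Over all genes the count, 548, became 865 without mouse 25, 129 without mouse 27, 126 without mouse 28 and 118 without mouse 29. It was 1121 with DESeq2 and 164 when only the compared groups were fitted. *Slc16a4*, *Slc5a8* and *Slc9a3* were called in each of these fits. The other calls were lost in some of the 10 alternative settings and 12 fits with a mouse left out. *Cubn* lost its call in 11 of these fits, *Lrp2* and *Slco4c1* in 6 each, *Slc7a13* in 5 and *Aqp1* in 4. Some uncalled members gained a call, among them *Slc3a1* in 6 of these fits, *Slco1a6* in 5, *Slc6a19* in 4 and *Slc13a2* in 3.

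In noncystic kidneys the motif deletion gave 0 called members, beside 0.00409% of all genes, which is 1 gene. With edgeR's test 2 members, *Slc22a7* and *Slc5a12*, had an unadjusted p under 0.05, beside 6.32% of all genes, and the adjusted p-values of the members ran from 0.773 to 1. DESeq2 also called 0 members. The median log2 fold change was 0.15, against 0.01 over all genes. The estimate was above 0 in 36 of the 40 members, the same number as between the cystic groups. In 4 members, *Slc34a3*, *Slc5a12*, *Slc6a18* and *Slc47a1*, all 3 noncystic Δ17 mice lay above all 3 noncystic wild-type mice, beside 5.68% of all genes. The test of whether the cystic and noncystic effects of the deletion differed called 0 members, beside 0.0123% of all genes. In that test 12 members had an unadjusted p under 0.05, beside 8.35% of all genes. The smallest adjusted p was 0.0755 (*Slc16a4*, 0.51 ± 0.09 on the log2 scale), and DESeq2 called 4 members, *Slc16a4*, *Slc7a13*, *Slc5a8* and *Aqp1*. Without mouse 25 the edgeR test called 5 members. Over all genes the count was 3, against 131 with DESeq2 and 61 without mouse 25. The rise of the 8 members in cystic kidneys is therefore not shown to differ from the change in noncystic kidneys.

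**Figure D1:**
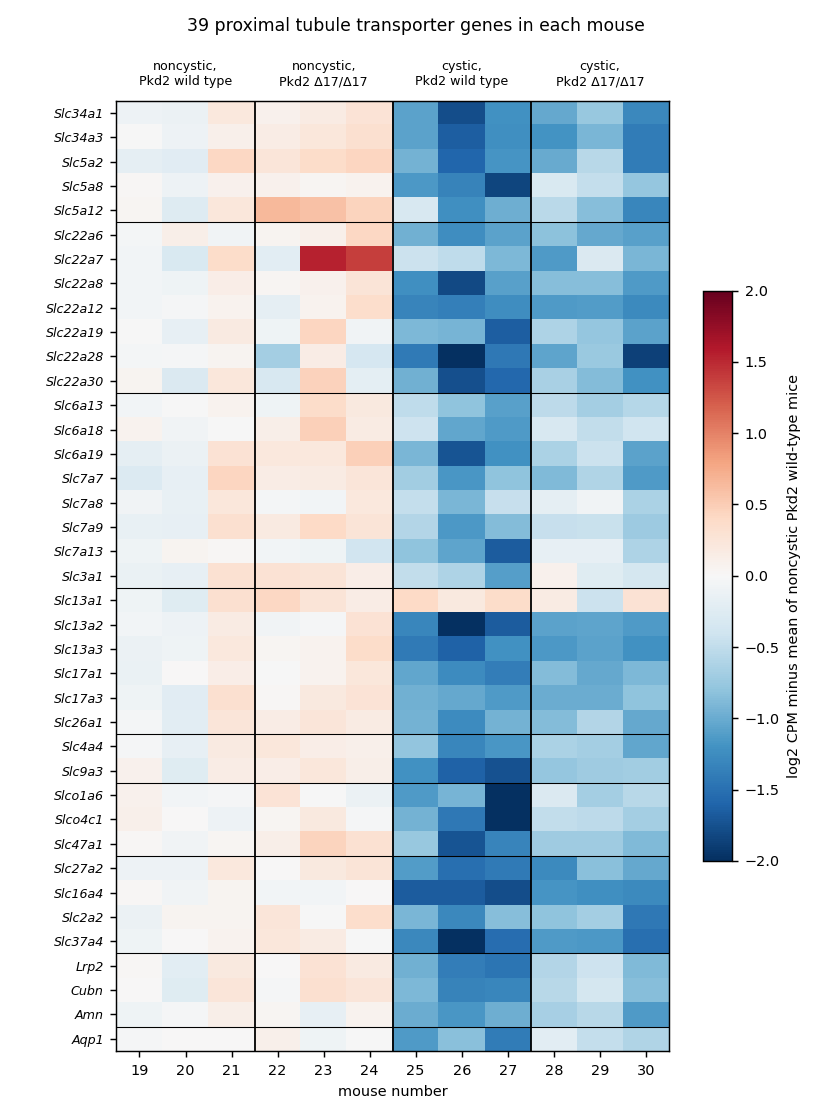
Log2 CPM of each member but *Slco1a1* in each of the 12 mice, minus the mean of the 3 noncystic wild-type mice, with members in rows grouped by role and mice in columns by number. Blue cells are below that mean and red cells above it. The 6 cystic mice are blue in nearly every row, with *Slc13a1* as the plain exception.

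Levels can be compared between genes only per length, so they are given here as RPKM, which divides the scaled count by the summed exon length. In noncystic wild-type kidneys the members spanned a wide range: 8 had a mean above 100 RPKM, 26 lay between 10 and 100 RPKM and 6, *Slco1a1* among them, lay under 10 RPKM. *Slc34a1*, the main sodium-phosphate cotransporter of the brush border, was the highest at 930.3 ± 123 RPKM (SD, n = 3). *Aqp1*, at 357 ± 5.05 RPKM, and *Slc27a2*, at 355 ± 44.9 RPKM, came next and did not differ beyond their spread. *Slc5a2* followed at 162 ± 42.5 RPKM, within 1 SD of *Slc6a18* at 130.5 ± 6.23 RPKM and *Amn* at 129 ± 9.38 RPKM. At the low end stood *Slco4c1* at 5.95 ± 0.438 RPKM, *Slc22a30* at 5.87 ± 1.03 RPKM and *Slc22a7* at 3.10 ± 0.745 RPKM. In cystic wild-type kidneys *Slc34a1* was still the highest at 369 ± 88.1 RPKM and *Aqp1* read 166 ± 32.2 RPKM.

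**Figure D2:**
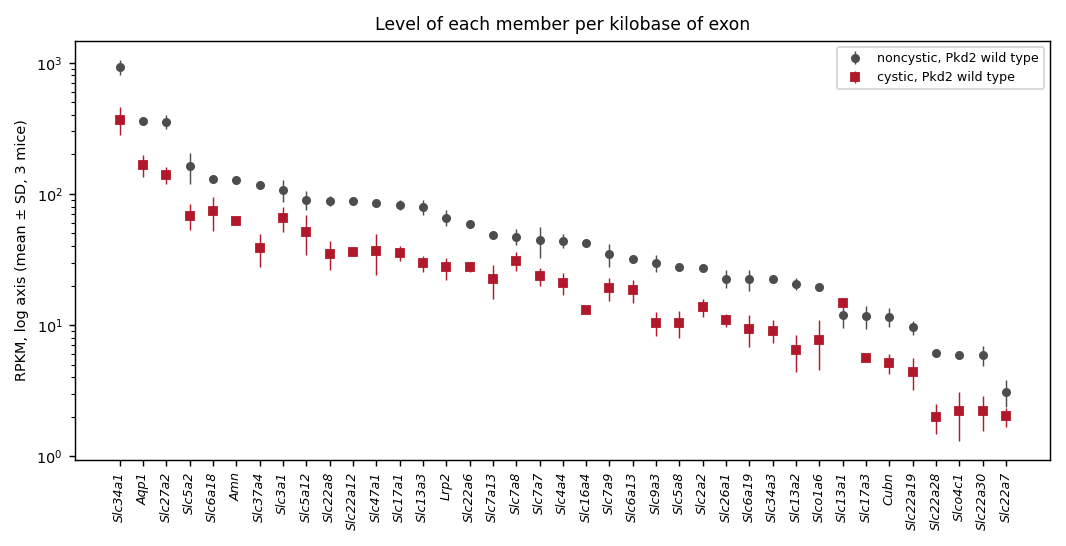
Mean level of each member but *Slco1a1* in RPKM on a log axis, in noncystic (circles) and cystic (squares) wild-type mice, with members ordered by their noncystic level. Bars are the SD over 3 mice. The cystic square lies below the noncystic circle for each of these members but *Slc13a1*.

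Taken as a sum, the 40 members held 1.23% to 1.51% of the reads in noncystic wild-type mice, 1.42% to 1.57% in noncystic Δ17, 0.557% to 0.771% in cystic wild-type and 0.759% to 0.928% in cystic Δ17 mice. No cystic mouse reached the lowest noncystic mouse. The cystic groups overlapped narrowly, since the highest cystic wild-type mouse, 25, lay just above the lowest cystic Δ17 mouse, 30. *Slc34a1* alone gave 23.7% to 31.4% of the summed reads. The cystic to noncystic ratio of the mean sum was 0.489 in wild-type and 0.563 in Δ17 kidneys, and without the 3 most abundant members, *Slc34a1*, *Slc27a2* and *Lrp2*, it was 0.527 and 0.605.

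Within a group the members tended to be high or low in the same mice. Leaving out *Slco1a1*, mouse 21 had the highest value of the noncystic wild-type group in 34 of 39 members, mouse 25 had the highest of the cystic wild-type group in 31, and mouse 30 had the lowest of the cystic Δ17 group in 30. The shares of all genes with these orders were not computed, so the counts are not shown to be particular to the members. The coefficient of variation over the 3 mice, as a median over the members, was 11.9% in noncystic wild-type, 8.75% in noncystic Δ17, 19.6% in cystic wild-type and 15.1% in cystic Δ17 mice. Mouse 25 also stood apart in a list of 8 liver-type markers, whose summed level was 644 CPM against 91.6 CPM and 98.4 CPM in mice 26 and 27 and 184 to 220 CPM in noncystic wild-type mice. Their summed level was 163, 150.3 and 302 CPM in mice 28, 29 and 30, and 176 to 197 CPM in noncystic Δ17 mice. Mouse 30 thus lay above its group mates and above all noncystic mice. Of these markers 3 were called higher and 2 lower in cystic wild-type kidneys. *Slc2a2*, *Slc27a2*, *Slc37a4* and *Slc22a7* are known to be made in liver too. Without mouse 25 the falls of the first 3 in wild-type kidneys were larger, at -1.06, -1.47 and -1.79 on the log2 scale. *Slc22a7* ran from -0.79 to -0.43 over the left-out mice. Mouse 25 was the highest of its group in 31 of 39 members, as given above. The median of all members ran from -1.33 to -1.11 over the left-out mice, against -1.20 with every mouse kept. A part of liver RNA in these values was not tested.

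The sodium-coupled cotransporters for phosphate, glucose and monocarboxylates were lower in cystic kidneys throughout: 5 of 5 were called in wild-type and 5 of 5 in Δ17 kidneys. *Slc34a1* (chromosome 13, 55398187 to 55415592, GRCm38) read 4042, 3995 and 5015 CPM in the noncystic wild-type mice, 4592, 4828 and 5212 CPM in the noncystic Δ17 mice, 2049.8, 1263 and 1867 CPM in the cystic wild-type mice and 2136, 2572 and 1771 CPM in the cystic Δ17 mice. All 6 cystic mice lay below all 6 noncystic mice, and the cystic groups overlapped. *Slc34a1* was 60.3% lower in cystic wild-type kidneys (log2 fold change -1.33 ± 0.17, SE, adjusted p = 1.12e-05) and 55.7% lower in cystic Δ17 kidneys (adjusted p = 7.13e-05). The difference between the cystic groups was 0.32 ± 0.17 (95% interval -0.06 to 0.70, adjusted p = 0.399). *Slc34a3*, the other sodium-phosphate cotransporter of the brush border, had log2 fold changes of -1.29 ± 0.14 and -1.39 ± 0.14 in the same comparisons.

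*Slc5a2*, the SGLT2 cotransporter that recovers most filtered glucose (chromosome 7, 128265657 to 128272430), read 404, 391 and 611 CPM in the noncystic wild-type mice, 540.2, 595 and 617 CPM in the noncystic Δ17 mice, 239, 153 and 203 CPM in the cystic wild-type mice and 229, 311 and 175 CPM in the cystic Δ17 mice. Cystic and noncystic mice again did not overlap, while mouse 29 at 311 CPM stood above all 3 cystic wild-type mice and mouse 30 below 2 of them. The log2 fold change was -1.24 ± 0.20 in wild-type (adjusted p = 0.000131) and -1.29 ± 0.20 in Δ17 kidneys (adjusted p = 0.000156). Between the cystic groups it was 0.26 ± 0.20 (adjusted p = 0.613), which was not called.

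The related monocarboxylate carriers *Slc5a8* and *Slc5a12* recover filtered lactate. The first was called between the cystic groups and the second was not, a contrast between the genes that was not tested. *Slc5a8* (chromosome 10, 88885992 to 88929515) read 149, 136 and 155 CPM in the noncystic wild-type mice, 155, 151 and 153 CPM in the noncystic Δ17 mice, 66.0, 58.2 and 41.2 CPM in the cystic wild-type mice and 118, 105 and 86.1 CPM in the cystic Δ17 mice. The 3 cystic Δ17 mice lay between the other groups, above every cystic wild-type mouse and below every noncystic mouse. It was 62.4% lower in cystic wild-type and 32.5% lower in cystic Δ17 kidneys, and 1.87-fold higher in cystic Δ17 than in cystic wild-type kidneys (log2 fold change 0.90 ± 0.14, adjusted p = 0.00325). This was the largest rise among the 8 called members. *Slc5a12* (chromosome 2, 110597298 to 110647779) read 371, 304 and 424 CPM in the noncystic wild-type mice, 567, 544 and 495 CPM in the noncystic Δ17 mice, 291, 155 and 184 CPM in the cystic wild-type mice and 251, 200.4 and 147 CPM in the cystic Δ17 mice. Mouse 25 lay well above the other cystic wild-type mice, and the noncystic Δ17 mice lay above the noncystic wild-type mice. Its log2 fold change was -0.80 ± 0.20 in wild-type kidneys (adjusted p = 0.00578), -1.43 ± 0.21 in Δ17 kidneys (adjusted p = 8.36e-05) and -0.07 ± 0.20 between the cystic groups (adjusted p = 0.918). The last value was above 0 without mouse 25 or mouse 30.

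The Slc22 family carries organic anions and urate across both membranes. Of its 7 members, 6 were lower in cystic wild-type and 7 in cystic Δ17 kidneys, and 0 were called between the cystic groups. The basolateral organic anion transporters *Slc22a6* and *Slc22a8*, which load the tubule cell with drugs and metabolites for secretion, had log2 fold changes of -1.09 ± 0.11 and -1.35 ± 0.14 in wild-type kidneys. The apical urate exchanger *Slc22a12* had -1.31 ± 0.11 and was close to that in Δ17 kidneys, at -1.27 ± 0.11. *Slc22a28* (chromosome 19, 8062209 to 8131982), a rodent member of the family, had the largest fall of the group in wild-type and the smallest in Δ17 kidneys, reading 11.9, 12.1 and 12.7 CPM in the noncystic wild-type mice, 7.63, 13.5 and 9.74 CPM in the noncystic Δ17 mice, 4.57, 2.79 and 4.56 CPM in the cystic wild-type mice and 5.87, 7.34 and 3.37 CPM in the cystic Δ17 mice. The 3 cystic wild-type mice lay below all noncystic mice, and the cystic Δ17 mice lay below their own controls with mouse 29 close to mouse 22. *Slc22a28* was 67.4% lower in wild-type kidneys (-1.62 ± 0.26 on the log2 scale, adjusted p = 0.000141) and 46.3% lower in Δ17 kidneys (adjusted p = 0.0181). The call in Δ17 kidneys was lost without mouse 23 and without mouse 30.

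The amino acid and GABA carriers had the smallest median fall of any role in wild-type kidneys. All 8 were lower in cystic wild-type kidneys, with a median log2 fold change of -0.85, and 5 of 8 were lower in cystic Δ17 kidneys. *Slc7a8*, the light chain that passes neutral amino acids to the blood (chromosome 14, 54722209 to 54781946), read 223, 211 and 274 CPM in the noncystic wild-type mice, 228, 225 and 272 CPM in the noncystic Δ17 mice, 168, 125 and 170.1 CPM in the cystic wild-type mice and 208, 223 and 151 CPM in the cystic Δ17 mice. In wild-type kidneys the cystic mice lay below the noncystic mice, while in Δ17 kidneys mouse 29 came within a few CPM of mouse 23. The log2 fold change was -0.61 ± 0.15 (adjusted p = 0.00401) and -0.32 ± 0.15 (adjusted p = 0.144), the second not called.

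*Slc3a1*, the heavy chain that pairs with *Slc7a9* for cystine uptake (chromosome 17, 85028376 to 85064236), read 221, 216 and 299 CPM in the noncystic wild-type mice, 295, 291 and 267 CPM in the noncystic Δ17 mice, 173, 158 and 113 CPM in the cystic wild-type mice and 258, 206 and 191 CPM in the cystic Δ17 mice. Each cystic wild-type mouse lay below each cystic Δ17 mouse and below the noncystic mice. It was 39.5% lower in wild-type kidneys (-0.73 ± 0.15, adjusted p = 0.00139), and neither the fall in Δ17 kidneys (-0.38 ± 0.15, adjusted p = 0.0857) nor the difference between the cystic groups (0.56 ± 0.15, adjusted p = 0.071) was called. For *Slc3a1* each of these results was called in 6 of the alternative settings and fits with a mouse left out. Its partner *Slc7a9* had log2 fold changes of -0.86 ± 0.14 and -0.82 ± 0.14, both called. *Slc6a13*, which takes up GABA (chromosome 6, 121300227 to 121337733), read 88.2, 91.4 and 96.8 CPM in the noncystic wild-type mice, 86.8, 119 and 105 CPM in the noncystic Δ17 mice, 64.7, 52.7 and 43.3 CPM in the cystic wild-type mice and 63.9, 57.3 and 61.7 CPM in the cystic Δ17 mice. It was lower by nearly the same amount in both genotypes, -0.78 ± 0.13 (adjusted p = 0.000127) and -0.76 ± 0.13 (adjusted p = 0.000262), and the cystic groups overlapped.

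*Slc7a13*, an aspartate and glutamate carrier of the late proximal tubule that also joins with *Slc3a1* (chromosome 4, 19818725 to 19842218), was the 1 amino acid carrier called between the cystic groups. It read 98.8, 109 and 107 CPM in the noncystic wild-type mice, 100.2, 98.7 and 79.9 CPM in the noncystic Δ17 mice, 60.1, 50.2 and 33.0 CPM in the cystic wild-type mice and 93.0, 93.9 and 68.0 CPM in the cystic Δ17 mice. The cystic wild-type mice lay below all other mice, and mice 28 and 29 lay within the range of the noncystic Δ17 mice. *Slc7a13* was 54.3% lower in cystic wild-type kidneys (adjusted p = 5.84e-05) and 1.78-fold higher in cystic Δ17 than in cystic wild-type kidneys (0.83 ± 0.17, adjusted p = 0.0182). In Δ17 kidneys its log2 fold change was -0.13 ± 0.17 (adjusted p = 0.651), a value that was above 0 when library totals replaced TMM or when mouse 30 was left out. The neutral amino acid carriers *Slc6a18* and *Slc6a19* and the basolateral *Slc7a7* were called lower in both genotypes, by -0.83, -1.26 and -0.91 in wild-type kidneys.

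Sulfate, dicarboxylate and organic phosphate-family carriers gave 5 of 6 called lower in each genotype. *Slc13a2*, which recovers filtered citrate at the brush border (chromosome 11, 78397087 to 78422217), read 47.9, 46.4 and 55.7 CPM in the noncystic wild-type mice, 47.4, 49.0 and 61.1 CPM in the noncystic Δ17 mice, 20.2, 10.5 and 15.7 CPM in the cystic wild-type mice and 23.7, 24.1 and 22.8 CPM in the cystic Δ17 mice. The cystic Δ17 mice lay close together and above the cystic wild-type mice, and all 6 cystic mice lay below all 6 noncystic mice. It was 69.0% lower in wild-type (-1.69 ± 0.17, adjusted p = 1.15e-06) and 55.2% lower in Δ17 kidneys (adjusted p = 7.26e-05). Between the cystic groups the difference of 0.60 ± 0.17 was not called (adjusted p = 0.0816). *Slc13a3*, the basolateral dicarboxylate carrier (chromosome 2, 165405028 to 165473230), read 379, 387 and 478 CPM in the noncystic wild-type mice, 421, 431 and 530.2 CPM in the noncystic Δ17 mice, 154, 134 and 177 CPM in the cystic wild-type mice and 186, 197 and 178 CPM in the cystic Δ17 mice. Its falls were close in size, -1.42 ± 0.12 in wild-type (adjusted p = 2.23e-07) and -1.30 ± 0.12 in Δ17 kidneys (adjusted p = 1.53e-06), and cystic and noncystic mice did not overlap. The urate and anion carriers *Slc17a1* and *Slc17a3* and the basolateral sulfate exchanger *Slc26a1* fell by 1.22, 1.06 and 1.05 on the log2 scale in wild-type kidneys.

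The apical sulfate cotransporter *Slc13a1* (chromosome 6, 24088283 to 24168092) was the plain exception, and was described because of its value. It read 86.6, 77.1 and 115 CPM in the noncystic wild-type mice, 122, 109.6 and 101 CPM in the noncystic Δ17 mice, 121, 105 and 118 CPM in the cystic wild-type mice and 102, 68.2 and 112 CPM in the cystic Δ17 mice. Cystic and noncystic mice overlapped in both genotypes. Its log2 fold change was 0.30 ± 0.16 in wild-type kidneys (95% interval -0.06 to 0.67, adjusted p = 0.164) and -0.24 ± 0.16 in Δ17 kidneys (95% interval -0.60 to 0.13, adjusted p = 0.33). When library totals replaced TMM the wild-type value was 0.46 and was called. Over the 10 alternative settings and 12 fits with a mouse left out, the wild-type value of *Slc13a1* ran from 0.16 to 0.48. It was called in 4 of these fits. *Slc26a1*, which acts after it in sulfate reabsorption, had -1.05 ± 0.12 and -1.0 ± 0.12.

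Both acid-base carriers were lower in both genotypes. *Slc9a3*, the NHE3 exchanger that takes up most filtered sodium and bicarbonate (chromosome 13, 74121457 to 74169442), read 173, 137 and 181 CPM in the noncystic wild-type mice, 178, 189.9 and 176 CPM in the noncystic Δ17 mice, 70.4, 53.0 and 48.4 CPM in the cystic wild-type mice and 95, 99.5 and 100.1 CPM in the cystic Δ17 mice. Its groups were cleanly layered, with the cystic wild-type mice lowest, the cystic Δ17 mice between and the noncystic mice highest. *Slc9a3* was 65.0% lower in wild-type (-1.52 ± 0.12, adjusted p = 1.44e-07) and 45.8% lower in Δ17 kidneys (adjusted p = 4.68e-05), and 1.71-fold higher in cystic Δ17 than in cystic wild-type kidneys (0.78 ± 0.12, adjusted p = 0.00386). *Slc4a4*, the basolateral bicarbonate cotransporter, had -1.08 ± 0.13 and -0.93 ± 0.13, and 0.30 ± 0.13 between the cystic groups, which was not called (adjusted p = 0.302).

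Among the organic anion polypeptides and the cation extruder, 3 of 4 were lower in cystic wild-type and 2 of 4 in cystic Δ17 kidneys. *Slco4c1*, a basolateral carrier of digoxin and thyroid hormone (chromosome 1, 96816270 to 96872171), read 31.3, 29.2 and 27 CPM in the noncystic wild-type mice, 29.9, 33.3 and 28.8 CPM in the noncystic Δ17 mice, 15.2, 10.8 and 6.49 CPM in the cystic wild-type mice and 20.8, 20.2 and 18.2 CPM in the cystic Δ17 mice. It too was layered, with no overlap between cystic wild-type, cystic Δ17 and noncystic mice. It was 62.7% lower in wild-type kidneys (-1.42 ± 0.20, adjusted p = 2.83e-05), 35.7% lower in Δ17 kidneys (adjusted p = 0.0221) and 1.81-fold higher in cystic Δ17 than in cystic wild-type kidneys (adjusted p = 0.0314). In Δ17 kidneys the value of -0.64 was no longer called without mouse 23, 29 or 30 (-0.59, -0.65 and -0.58) or with library totals (-0.49). *Slco1a6* had -1.33 ± 0.22 in wild-type kidneys (adjusted p = 0.000139) and 0.83 ± 0.22 between the cystic groups (adjusted p = 0.056), the second not called. *Slc47a1*, the MATE1 extruder of organic cations, had -1.21 ± 0.17 and -1.06 ± 0.17, both called.

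All 4 carriers of fatty acids, monocarboxylates and glucose were lower in both genotypes, and as a group had the lowest median of any role in wild-type kidneys, -1.47 on the log2 scale. *Slc16a4*, a member of the monocarboxylate transporter family (chromosome 3, 107291230 to 107312115), read 166, 157 and 170.2 CPM in the noncystic wild-type mice, 158, 158 and 165 CPM in the noncystic Δ17 mice, 52.1, 51.8 and 47.9 CPM in the cystic wild-type mice and 72.7, 70.0 and 68.2 CPM in the cystic Δ17 mice. Its mice were close together within every group, and the 2 cystic groups lay apart from each other and far below the noncystic groups. *Slc16a4* had both the largest fall and the smallest adjusted p of the set, 69.2% lower in wild-type kidneys (-1.70 ± 0.07, adjusted p = 5.89e-10). It was 56.2% lower in Δ17 kidneys (adjusted p = 2.21e-08) and 1.39-fold higher in cystic Δ17 than in cystic wild-type kidneys (0.47 ± 0.07, adjusted p = 0.00223). *Slc37a4*, which brings glucose 6-phosphate into the endoplasmic reticulum for glucose release (chromosome 9, 44396852 to 44402968), read 315, 336 and 353 CPM in the noncystic wild-type mice, 393, 375 and 332 CPM in the noncystic Δ17 mice, 137, 77.0 and 117 CPM in the cystic wild-type mice and 152, 151 and 118 CPM in the cystic Δ17 mice. It was 67.1% lower in wild-type (-1.60 ± 0.16, adjusted p = 9.92e-07) and 61.8% lower in Δ17 kidneys (adjusted p = 9.48e-06), with overlapping cystic groups. The basolateral glucose carrier *Slc2a2* and the fatty acid carrier *Slc27a2* had -1.01 ± 0.16 and -1.35 ± 0.13 in wild-type kidneys.

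The receptors for filtered protein were lower in both genotypes, 3 of 3. *Lrp2*, which encodes megalin (chromosome 2, 69424340 to 69586065), read 1107, 945 and 1251 CPM in the noncystic wild-type mice, 1099, 1330.2 and 1237 CPM in the noncystic Δ17 mice, 560.1, 419 and 399 CPM in the cystic wild-type mice and 728, 825 and 594 CPM in the cystic Δ17 mice. No cystic mouse reached a noncystic one, and mouse 30 was the cystic Δ17 mouse nearest to mouse 25. *Lrp2* was 58.3% lower in wild-type kidneys (-1.26 ± 0.15, adjusted p = 5.02e-06), 41.4% lower in Δ17 kidneys (adjusted p = 0.000819) and 1.56-fold higher in cystic Δ17 than in cystic wild-type kidneys (0.64 ± 0.15, adjusted p = 0.031).

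*Cubn*, which encodes the cubilin that binds albumin and vitamin carriers (chromosome 2, 13276338 to 13491813), read 173, 145 and 202 CPM in the noncystic wild-type mice, 168, 214 and 203 CPM in the noncystic Δ17 mice, 92.0, 68.0 and 69.3 CPM in the cystic wild-type mice and 116, 135 and 94.7 CPM in the cystic Δ17 mice. The pattern was that of *Lrp2*, and mouse 30 lay just above mouse 25. *Cubn* was 55.9% lower in wild-type (-1.18 ± 0.15, adjusted p = 1.19e-05) and 40.9% lower in Δ17 kidneys (adjusted p = 0.00109). Its rise of 1.51-fold between the cystic groups was the weakest of the 8 calls (adjusted p = 0.0482). With 1 mouse left out the adjusted p of this edgeR test reached 0.234. *Amn*, which anchors cubilin in the membrane (chromosome 12, 111271095 to 111276426), read 223, 233 and 256 CPM in the noncystic wild-type mice, 243, 212 and 248 CPM in the noncystic Δ17 mice, 119, 106 and 120.3 CPM in the cystic wild-type mice and 149.6, 162 and 108 CPM in the cystic Δ17 mice. Cystic and noncystic mice did not overlap, but the cystic groups did, since mouse 30 lay among the cystic wild-type mice. Its falls were -1.04 ± 0.12 (adjusted p = 4.96e-06) and -0.74 ± 0.12 (adjusted p = 0.000229), and the 0.28 ± 0.12 between the cystic groups was not called (adjusted p = 0.287).

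*Aqp1*, the water channel of the proximal tubule, also made in the thin descending limb and in some vessels (chromosome 6, 55336432 to 55348555), read 923, 944 and 947 CPM in the noncystic wild-type mice, 1002, 886 and 928 CPM in the noncystic Δ17 mice, 429, 524 and 356 CPM in the cystic wild-type mice and 807, 673 and 616 CPM in the cystic Δ17 mice. Noncystic mice lay within a narrow range in both genotypes, the cystic wild-type mice were lowest and the cystic Δ17 mice lay between. *Aqp1* was 53.5% lower in wild-type kidneys (-1.10 ± 0.13, adjusted p = 4.28e-06) and 25.6% lower in Δ17 kidneys (adjusted p = 0.0196), the smallest called fall there. It was 1.60-fold higher in cystic Δ17 than in cystic wild-type kidneys (0.68 ± 0.13, adjusted p = 0.0112). In Δ17 kidneys the value of -0.43 was no longer called without mouse 22, 29 or 30 (-0.39, -0.40 and -0.34) or with library totals (-0.27).

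**Figure D3:**
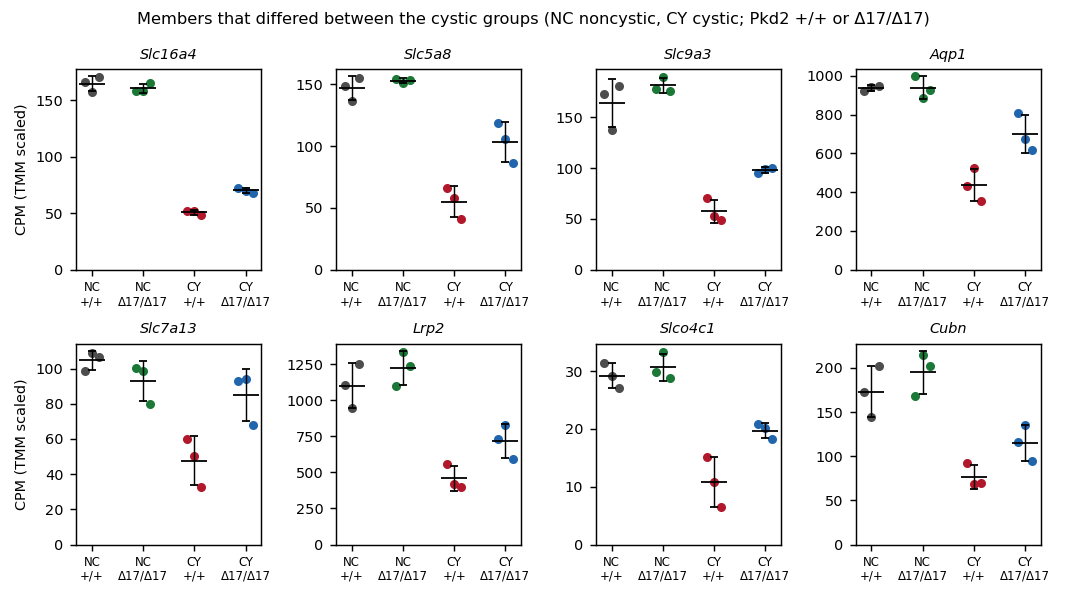
Level in CPM of each of the 8 members called between the cystic groups, in each mouse by group, with the mean and SD over 3 mice in black. For each member the 3 cystic Δ17 mice lie above the 3 cystic wild-type mice, and for all but *Slc7a13* they lie below the noncystic mice.

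The remaining members without a call in wild-type kidneys, beside *Slc13a1*, were *Slc22a7* and *Slco1a1*. They were described because of their values. *Slc22a7*, a low-level organic anion transporter, read 6.13, 5.19 and 8.24 CPM in the noncystic wild-type mice, 5.5, 18.6 and 16.7 CPM in the noncystic Δ17 mice, 4.76, 4.50 and 3.43 CPM in the cystic wild-type mice and 2.93, 5.23 and 3.41 CPM in the cystic Δ17 mice. Mice 23 and 24 stood far above the rest. Its log2 fold change was -0.62 ± 0.35 in wild-type kidneys (adjusted p = 0.204) and -1.82 ± 0.35 in Δ17 kidneys (adjusted p = 0.000977), the largest fall there, and 1.06 ± 0.34 between the noncystic groups (adjusted p = 0.773). *Slco1a1*, an organic anion polypeptide, had 3, 0 and 4 counts in the noncystic wild-type, 9, 2 and 0 in the noncystic Δ17, 6, 0 and 1 in the cystic wild-type and 0, 1 and 5 in the cystic Δ17 mice, too few to compare. In Δ17 kidneys, beside *Slco1a1* and *Slc13a1*, no call was made for *Slc7a13*, *Slco1a6*, *Slc3a1* and *Slc7a8*.

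The 2 cystic to noncystic comparisons share no mice. Of the 40 members, 33 were called lower in both, which is 89.2% of the 37 called in wild-type and 97.1% of the 34 called in Δ17 kidneys, beside 8.89% of all genes called lower in both. Leaving out *Slco1a1*, in 31 of 39 members the log2 fold change was nearer to 0 in Δ17 kidneys. The share of all genes with this order was not computed, so the count is not shown to be particular to the members. Of all genes, 31.2% were called in wild-type and 23.2% in Δ17 kidneys. The sizes of the falls were only loosely related across members (Pearson's r 0.33 and Spearman's rho 0.26 over these 39 genes, which share their libraries). The largest differences were in *Slc7a13*, *Slc5a8*, *Slco4c1*, *Slco1a6*, *Slc22a28*, *Aqp1* and *Slc9a3*, whose estimates were nearer to 0 in Δ17 kidneys, and in *Slc22a7* and *Slc5a12*, whose estimates were further from 0. None of these differences passed the interaction test, in which the estimates were 1.0 ± 0.23 for *Slc7a13* (adjusted p = 0.182), 0.84 ± 0.19 for *Slc5a8* (adjusted p = 0.164) and -0.62 ± 0.29 for *Slc5a12* (adjusted p = 0.592).

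**Figure D4:**
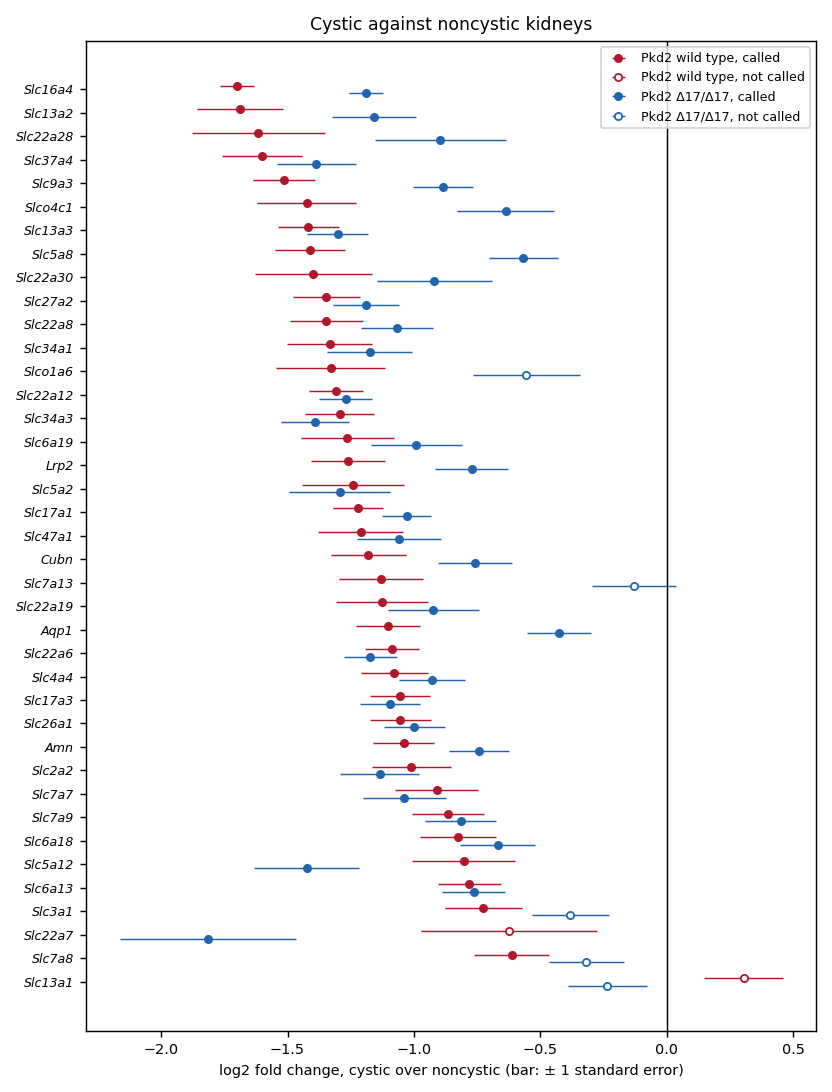
Log2 fold change of cystic over noncystic kidneys for each member but *Slco1a1*, with wild-type kidneys in red and Δ17 kidneys in blue. Bars are 1 standard error, filled points were called and open points were not. Only *Slc13a1* in wild-type kidneys lies to the right of 0.

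**Figure D5:**
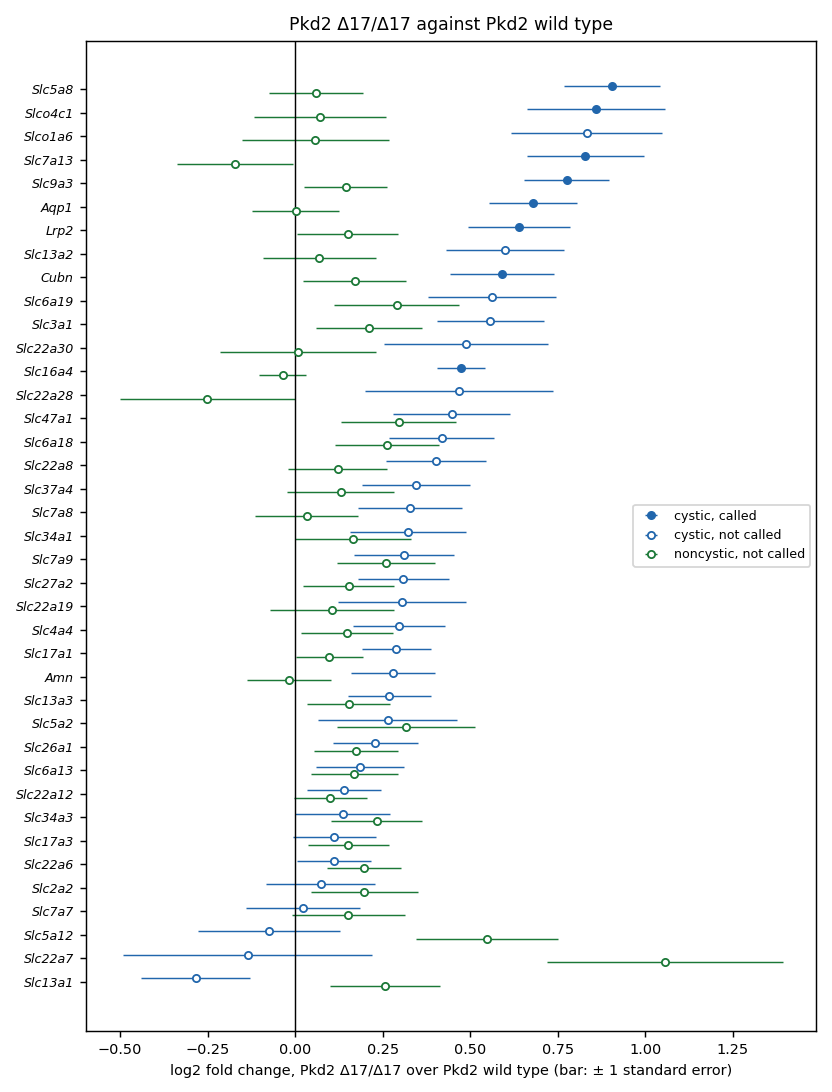
Log2 fold change of *Pkd2* Δ17/Δ17 over wild type for each member but *Slco1a1*, in cystic (blue) and noncystic (green) kidneys. Bars are 1 standard error, filled points were called and open points were not. The 8 filled points are all in cystic kidneys, and the noncystic points were not called.

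Several members lie side by side in the genome. Chromosome 19 held 6 members, all of the Slc22 family, with *Slc22a8* and *Slc22a6* 6203 bases apart. *Slc17a3* and *Slc17a1* were 7033 bases apart and *Slc6a18* and *Slc6a19* 1721 bases apart, both pairs on chromosome 13. In cystic wild-type kidneys *Slc6a18* changed by -0.83 ± 0.15 and *Slc6a19* by -1.26 ± 0.18, while *Slc17a3* changed by -1.06 ± 0.12 and *Slc17a1* by -1.22 ± 0.10. The nearest members of chromosome 5, which also holds *Pkd2*, were *Slc4a4* (88886818 to 89239653) and *Slc26a1* (108669878 to 108675569). Between the noncystic groups they changed by 0.15 ± 0.13 and 0.17 ± 0.12, neither called.

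Counts of 9 members are uncertain because an exon overlaps a gene on the other strand and the strand setting of the counting is not given in the sources used here. These were *Slc34a1* with *Pfn3*, *Slc5a2* with *BC017158*, *Slc22a12* with *Nrxn2*, *Slc7a7* with *Oxa1l*, *Slc3a1* with *Prepl*, *Slc13a2* with *Slc13a2os*, *Slc26a1* with *Idua*, *Slc27a2* with *Gm26697* and *Cubn* with *Gm13270*. Reads of closely related neighbours, such as *Slc22a19*, *Slc22a28* and *Slc22a30*, or *Slco1a1* and *Slco1a6*, may also be split between copies.

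Most of the other listed genes of the same segment were lower as well. Of 35 other proximal transport genes, 26 were lower and 1 was higher in cystic wild-type kidneys, among them the urate carrier *Slc2a9* (-1.96 ± 0.16), the cation carrier *Slc22a2* (-1.14 ± 0.10) and the glutamate carrier *Slc1a1* (-1.21 ± 0.11). Of 24 proximal tubule enzymes, 22 were lower and 0 higher, including *Ggt1* (-1.18 ± 0.09), which cleaves glutathione at the brush border, and the gluconeogenic enzymes *Fbp1* (-1.42 ± 0.13) and *Pck1* (-2.37 ± 0.22). Of 12 partners and scaffolds of the transporters, 9 were lower and 1 was higher. *Car4*, a membrane carbonic anhydrase, had -1.13 ± 0.11, *Cltrn*, which carries *Slc6a19* to the brush border, had -1.49 ± 0.15, and *Lrpap1*, the chaperone of megalin, had -0.80 ± 0.09. Of 10 transcription factors of the segment, 7 were lower and 2 higher, and *Nr1h4* (-1.0 ± 0.11), *Esrra* (-0.66 ± 0.08) and *Maf* (-1.09 ± 0.13) had the smallest p. In Δ17 kidneys 22 of the transport genes were lower in cystic mice and 1 was higher, as were 22 and 0 of the enzymes, 9 and 0 of the partners, and 5 and 1 of the transcription factors. Between the cystic groups, 5 of the transport genes, 2 of the enzymes, 1 of the partners and 0 of the transcription factors were higher, and 0 of any were lower.

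Markers of other cell types moved with the same comparison. In wild-type kidneys 4149 of the 24475 genes were called higher, and 25.2% of the better expressed genes. In cystic wild-type kidneys 9 of 9 macrophage markers were higher, with a summed level of 475 to 654 CPM against 189.9 to 201 CPM in noncystic wild-type mice. Of the fibroblast and matrix markers, 7 of 9 were higher and 1 was lower (3814 to 5756 against 2275 to 2461 CPM). Of the principal cell markers of the collecting duct, 5 of 8 were higher (2256 to 3877 against 1292 to 1431 CPM), and of the tubule injury markers 9 of 10 were higher (4930 to 6089 against 1850.2 to 2168.5 CPM). Falls were not confined to the proximal tubule. Of the distal convoluted tubule markers 5 of 6 were lower (293 to 602.5 against 1116 to 1623 CPM), of the thick ascending limb markers 6 of 9 were lower and 2 higher (2254 to 2926 against 4998 to 5767 CPM), and of the podocyte markers 4 of 5 were lower and 1 higher (319 to 370.1 against 552 to 659 CPM). Intercalated cell markers were lower in 4 of 7 and higher in 1 (581 to 886 against 874 to 1049 CPM), and endothelial markers lower in 5 of 7 (635 to 806 against 1020.0 to 1147 CPM). In Δ17 kidneys 9 of 9 macrophage, 7 of 9 fibroblast and 5 of 8 principal cell markers were higher in cystic mice. Of the injury markers 5 of 10 were higher and 1 was lower. Among all genes 3161 were called higher there, and 20.7% of the better expressed genes. Lower in Δ17 kidneys were 5 of 6 distal convoluted tubule and 3 of 9 thick ascending limb markers, with 2 of the latter higher. Also lower were 4 of 5 podocyte, 4 of 7 intercalated cell and 3 of 7 endothelial markers, with 0 higher. No marker in these lists had a group mean of 0, and the part of these shifts in the falls of the transporter genes was not tested.

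Between the cystic groups the same lists moved the other way in part. In cystic Δ17 mice 4 of 9 macrophage markers were lower (333 to 461 CPM), 5 of 10 injury markers were lower (2814 to 4624 CPM), 1 of 8 principal cell markers was lower (1720.4 to 2536 CPM), and 4 of 9 thick ascending limb markers and 1 of 7 endothelial markers were higher (4188 to 4426 and 769 to 976 CPM). Their part in the rise of the 8 members was not tested.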

How the data were processed

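Whole kidneys of 12 mice were sequenced by the study, and the authors deposited raw read counts per gene for every mouse. The submitters' processing notes name Trim Galore 0.6.3, STAR 2.5.3a and GRCm38; the strand setting of the counting is not given in the sources used here. Groups were taken from the labels, which give no sex and do not say whether mice shared litters.

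Of the 54532 rows, 343 that named no gene, with 0.0225% of the reads, stayed out of the library sizes and the tests. The filter on low counts, a mean log2CPM of -3 or more, left 24475 genes. Counts were scaled by TMM factors and tested with edgeR 4.0.16 (R 4.3.3) by its quasi-likelihood test, with 4 group means fitted over all 12 mice (8 residual degrees of freedom) and Benjamini-Hochberg adjustment over all genes tested. The threshold was an adjusted p under 0.05. Each SE was derived from the log2 fold change and the F value of the test. The 95% intervals used this SE with 8 degrees of freedom, so they need not match the p-values of the test. Library totals of 18796318 to 24447257 counts limit the precision of low genes, and counting error alone was below the spread between mice. Gene positions and exon lengths for RPKM came from GENCODE M21, which held 99.93% of the gene identifiers. The test scripts were tested on simulated data.

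The members and the other gene lists were chosen with earlier results of these data known. Values in every mouse are given for the 8 called members with the lowest and the 4 with the highest log2 fold change in cystic wild-type kidneys, for up to 10 called between the cystic groups, for any called in noncystic kidneys or in the interaction test, and for *Lrp2*, *Cubn*, *Amn*, *Slc34a1*, *Slc5a2*, *Slc9a3* and *Aqp1*. From every other list at most 3 genes with the smallest p in the first comparison are named with values. The rest are given by counts or briefly, and *Slc13a1*, *Slc22a7*, *Slco1a1* and any other gene singled out were chosen after their values were seen. Alternatives were limma-trend (limma 3.58.1), the test of the study's methods, DESeq2 1.42.0, other scalings, filters, samples and thresholds, *Xist* as a covariate, and each mouse left out.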

Additional observations from a re-analysis of the deposited data

How the results depend on the processing

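Over the alternatives 37 or 38 members were called lower in cystic wild-type kidneys and 0 or 1 higher, and 31 to 38 were called lower and 0 higher in cystic Δ17 kidneys. Library totals in place of TMM moved the median of all genes by 0.16 and 0.15 on the log2 scale. The median of the members was then -1.04 (both edgeR and limma-trend) in wild-type, and -0.84 (edgeR) or -0.82 (limma-trend) in Δ17 kidneys, and *Slc7a13* in Δ17 kidneys turned to 0.0209 (edgeR) or 0.0154 (limma-trend). Leaving out each mouse gave *Slc7a13* values of -0.23 to 0.00797, the highest without mouse 30. Leaving out each mouse gave medians of -1.33 to -1.11 in wild-type kidneys.

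Between the cystic groups the 8 calls became 22 with no filter (21 higher and 1 lower), 3 with only the compared groups and 3 at an adjusted p under 0.01, and 3 to 16 when each mouse was left out, with a median log2 fold change of 0.22 to 0.46. The count over all genes, 548, became 1121 with DESeq2, 1638 with no filter and 164 with only the compared groups. It ran from 118 to 865 when each mouse was left out. *Slc5a12* turned to 0.00643 with the *Xist* covariate and ran from -0.27 to 0.24 over the left-out mice (0.10 without mouse 30, highest without mouse 25), and *Slc22a7* from -0.42 to 0.0273 (highest without mouse 28). In noncystic kidneys no filter gave 2 calls and 123 over all genes. The interaction test gave 4 calls with DESeq2, 12 with no filter (9 higher and 3 lower), 1 with at least 10 counts in every mouse and 0 to 5 when each mouse was left out (5 without mouse 25), with a median of 0.0708 to 0.33. Its count over all genes, 3, became 131 with DESeq2, 566 with no filter and 0 to 61 when each mouse was left out (61 without mouse 25). Fewer mice lower the power of the left-out fits by construction, and otherwise the cause was not tested. No paired analysis was possible because every mouse number occurs in only 1 group.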

Other observations

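The labels give no sex. *Xist* read 431 to 811 CPM in 6 mice (19, 22, 23, 25, 26 and 28) and 5.47 to 7.74 CPM in the others. With log2CPM of *Xist* as a covariate, 37 members were called lower in cystic wild-type kidneys, 34 in cystic Δ17 kidneys and 9 were called between the cystic groups.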
